A study of Mus musculus with 45 samples.

Results

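Apolipoproteins are the protein coat of the particles that carry cholesterol and triglyceride in plasma, and 10 of their genes were followed here through liver, kidney and brain: Apoa1, Apoa2, Apoa4, Apoa5, Apob, Apoc1, Apoc2, Apoc3, Apoe and Apom. Their rows were picked by symbol, but the members were chosen with earlier results of these data known. Each had 1 row among the 22080 genes of the expression table. The samples came from male C57BL/6 mice in 5 diet groups of 8 mice. The stated age of 7 weeks is, by the methods, that of the mice taken into the experiment and not the age at sacrifice. Control mice ate the AIN-93 diet, HCD mice the same diet with 0.5% cholesterol, HCD+Gl-1 and HCD+Gl-2 mice the cholesterol diet with 1% of an extract of Ganoderma lucidum, and HCD+Sim mice the cholesterol diet with simvastatin at 0.03 g per 100 g. Gl-1 and Gl-2 are extracts of the same mushroom, and the Gl-2 mushrooms were grown on a substrate that held acetylsalicylic acid. All mice were sacrificed on day 43.

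Each tissue and diet had 3 Affymetrix mouse gene arrays, 45 in all, one for each of the RNA pools A, B and C. Pool A held 4 mice, pool B the 4 others, and pool C was made from A and B together, so 3 arrays stood for 2 separate pools and p-values measured the spread between these arrays. Pool C lay between A and B in 48 of 150 values of the 10 genes (32%) and in 28.3% of the values of all genes, where 3 arrays in no order give 33.3%, so these values do not show it to be the mixture. Saa2, chosen after its values were seen, read 11.95, 11.24 and 7.12 in pools A, B and C of HCD+Sim liver. For the 10 genes, each call that changes without pool C is given both ways. Values are log2 array signals, so a difference of 1 is a doubling. Array medians ran from 6.76 to 6.92, and 2 arrays of a group correlated at 0.9846 to 0.9974. Differences were tested with limma in a single fit over all arrays, and a gene passed at an adjusted p (Benjamini-Hochberg over all genes) of at most 0.05. It counted as differentially expressed (DE) if its log2 difference was also over 0.7 in size.

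The tissues carried their own markers. The mean of 12 hepatocyte genes was 12.83 to 12.92 on the liver arrays against 6.58 to 6.75 in kidney and 6.07 to 6.54 in brain. Kidney tubule and podocyte genes averaged 11.1 to 11.24 in kidney and 5.89 to 6.35 elsewhere, and neuron and glia genes 10.98 to 11.21 in brain and 6.4 to 7.01 elsewhere.

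The family divides by role. Apob is the scaffold of very low density and low density lipoproteins and stays with the particle for life. Apoa1 and Apoa2 are the main proteins of high density lipoprotein (HDL), and Apom is a small HDL protein that carries sphingosine-1-phosphate. Apoc2 is the cofactor that lipoprotein lipase needs, Apoc1 and Apoc3 hold back lipolysis and uptake, and Apoa5 favours lipolysis. Apoe is the ligand by which the LDL receptor and its relatives clear remnant particles, and in brain it is made mainly by astrocytes. Apoa4 is secreted with chylomicrons by the intestine and, in mice, by the liver as well. Several of the genes lie in clusters. In RefSeq's gene order (GRCm38.p6), chromosome 9 holds Apoa1, Apoc3, Apoa4 and Apoa5 side by side, and chromosome 7 holds Apoc2, Apoc4, Apoc1 and Apoe. Apoa2 lies on chromosome 1, Apob on chromosome 12 and Apom on chromosome 17.

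Start site regions are shown for 3 genes of the liver comparison: Apoa4 and Apom, whose signals were lower on all cholesterol diets, and Apoa1, a gene of the Apoa4 cluster that did not pass. Each window runs from 250 bases before to 50 bases after a RefSeq start site (GRCm38.p6) and is written 5′ to 3′ along the gene. The Apoa1 window is chr9:46228380-46228679, forward strand, the Apoa4 window chr9:46240594-46240893, forward strand, and the Apom window chr17:35131752-35132051, reverse strand. Capitals mark the letters AGGTCA on either strand, or AGTTCA in their place, and likewise GGGTCA and also GGTTCA, which are 4 spellings of the core motif that nuclear receptors bind. These spellings were chosen after the windows had been seen.
Apoa1: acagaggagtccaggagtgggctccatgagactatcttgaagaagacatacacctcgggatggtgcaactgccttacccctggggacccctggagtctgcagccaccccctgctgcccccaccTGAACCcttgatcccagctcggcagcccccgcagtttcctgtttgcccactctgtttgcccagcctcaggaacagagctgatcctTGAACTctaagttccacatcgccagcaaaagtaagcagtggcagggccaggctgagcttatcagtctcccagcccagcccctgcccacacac
Apoa4: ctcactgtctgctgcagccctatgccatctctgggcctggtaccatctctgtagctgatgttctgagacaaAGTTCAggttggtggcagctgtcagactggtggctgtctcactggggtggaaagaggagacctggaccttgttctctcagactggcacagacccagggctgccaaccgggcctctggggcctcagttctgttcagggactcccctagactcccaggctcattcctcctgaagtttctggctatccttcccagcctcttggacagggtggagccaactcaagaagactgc
Apom: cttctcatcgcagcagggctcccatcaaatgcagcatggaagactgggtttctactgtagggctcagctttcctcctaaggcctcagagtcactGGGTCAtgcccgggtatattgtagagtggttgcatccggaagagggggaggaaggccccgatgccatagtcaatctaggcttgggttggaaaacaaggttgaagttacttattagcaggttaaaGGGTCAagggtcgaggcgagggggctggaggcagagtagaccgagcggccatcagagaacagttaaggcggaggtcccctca

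Apoa1 had 2 such matches, both on the opposite strand, first base at positions -127 and -42 from the start site. Apoa4 had 1 match at position -179, and Apom had 2, at positions -156 and -32. Windows were found for 8 of the 10 genes, 12 windows in all, and not for Apoc1 and Apoc3. At least 1 of the 4 spellings was in 11 of these 12 windows and in 40.8% of the 19102 windows of all genes in the table. AGGTCA alone, on either strand, was in 2 of the 12 and in 14.4% of all windows, and CCAAT on either strand in 2 of the 12 and in 37.7%. The TATA box letters TATAAA on the gene's own strand were in 5 of the 12 (1 window each of Apoa2, Apob and Apoe and both of Apoa5) and in 7.48% of all. Their first base was at -212 in Apoa2, -60 in Apob and -96 in Apoe. In Apoa5 it was at -31 and -56, the same site read in 2 overlapping windows. GGGCGG and TGACGT, read on both strands, were in none of the 12, against 48.7% and 8.96% of all windows. Some windows of 1 gene overlap, so the 12 are not independent, and a match of letters is a description only.

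**Figure D1:**
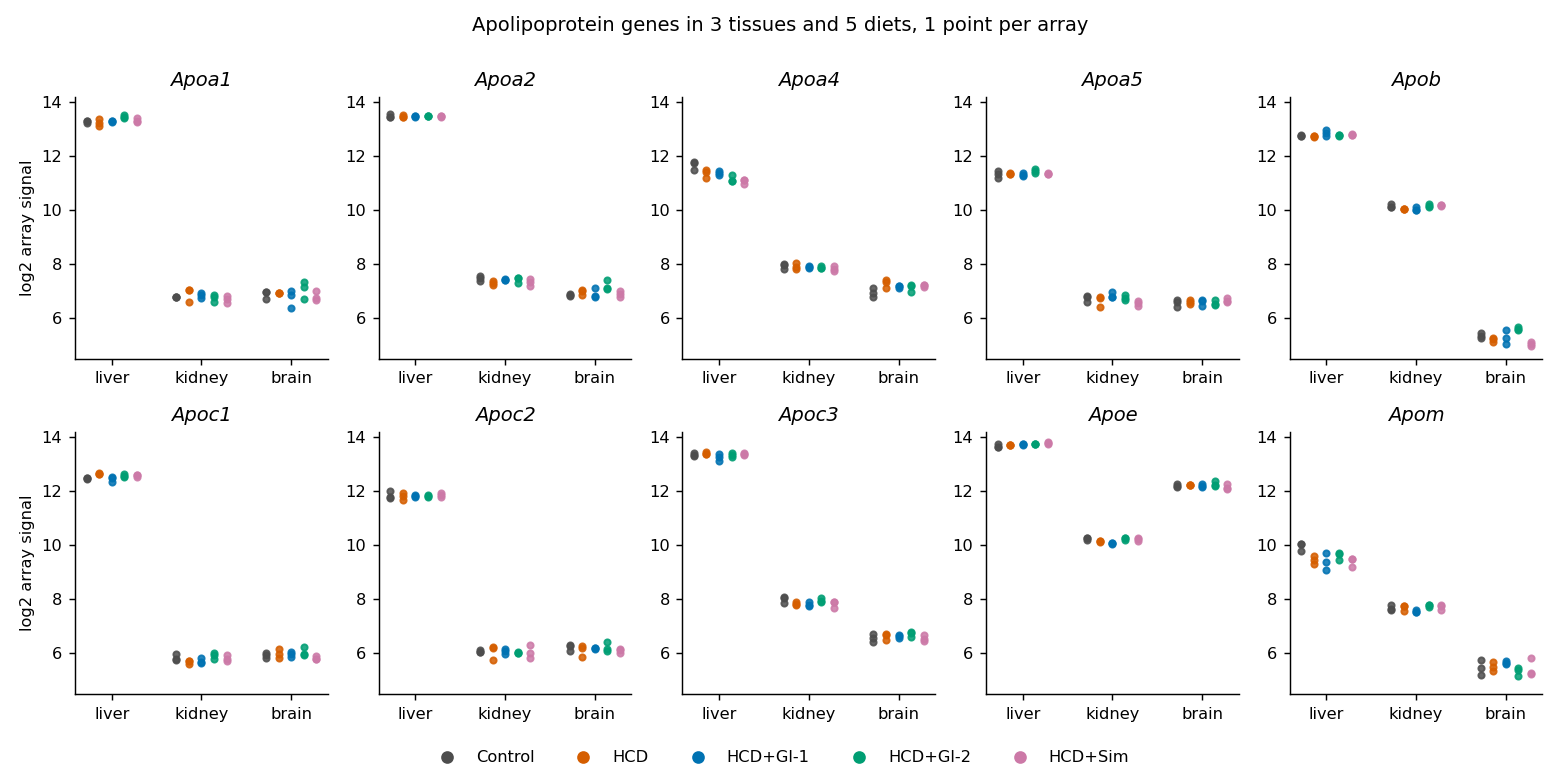
Log2 array signal of the 10 genes (y axis) on the 15 arrays each of liver, kidney and brain (x axis), 1 point per array, coloured by diet. All 10 genes were highest in liver, brain was clearly above kidney for Apoe alone, and the diets of a tissue lay close together at this scale.

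The question of where the genes are expressed was answered on the Control diet. All 10 genes were DE and higher in liver than in kidney, where 16.8% of all genes were DE and 48.4% passed the adjusted p alone. All 10 were also DE and higher in liver than in brain, against 32.7% DE and 70% passing among all genes. The median difference over the 10 genes was 4.97 against kidney and 6.01 against brain, beside 0.056 and 0.141 over all genes. In each of the 10 genes the lowest of the 15 liver arrays lay above the highest array of both other tissues. The share of all genes with such a separation was not counted. These are differences of array signal and no exact folds. In liver Apoe was 0.11 to 0.25 below the highest value on its array, Apoa1 0.36 to 0.74, Apoa2 0.38 to 0.53 and Apoc3 0.4 to 0.8. Elsewhere many signals lay at or below the array medians of 6.76 to 6.92, and whether they were above background was not tested.

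The HDL proteins Apoa1 and Apoa2 were liver genes with little signal elsewhere. Apoa1 read 13.30, 13.28 and 13.24 in Control liver, 6.77, 6.77 and 6.78 in Control kidney, and 6.97, 6.97 and 6.71 in Control brain. Liver exceeded kidney by 6.50 (SE 0.13) on the log2 scale and brain by 6.39 (SE 0.13). Kidney and brain did not pass for Apoa1 (difference -0.11, 95% interval -0.36 to 0.15). Apoa2 read 13.46, 13.45 and 13.55 in Control liver, 6.02 above kidney and 6.64 above brain (SE 0.08 each). Its kidney arrays, at 7.48, 7.55 and 7.38, all lay above the brain arrays at 6.83, 6.84 and 6.88, a difference of 0.62 (SE 0.08, adjusted p = 2.27e-08) that stayed under the DE size.

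Apom, the carrier of sphingosine-1-phosphate, fell in steps from liver over kidney to brain. Its Control arrays read 10.05, 9.78 and 10.05 in liver, 7.64, 7.60 and 7.78 in kidney, and 5.20, 5.77 and 5.47 in brain. The 3 tissues did not overlap. Liver exceeded kidney by 2.29 (SE 0.14) and kidney exceeded brain by 2.19 (SE 0.14, adjusted p = 2.32e-17).

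Apob, the scaffold protein, had the same order. Control arrays read 12.75, 12.75 and 12.77 in liver, 10.10, 10.10 and 10.24 in kidney, and 5.43, 5.33 and 5.26 in brain. Liver exceeded brain by 7.42 (SE 0.08) and kidney by 2.61 (SE 0.08). Kidney exceeded brain by 4.81 (SE 0.08, adjusted p = 8.08e-37), and the 3 tissues did not overlap.

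The regulators of lipolysis divided. Apoc1 read 12.47, 12.51 and 12.49 in Control liver, 5.96, 5.81 and 5.75 in kidney, and 6.02, 5.84 and 5.93 in brain, with kidney and brain overlapping (difference -0.09, 95% interval -0.26 to 0.07). Apoc2 read 11.80, 11.76 and 12.03 in liver and did not pass between kidney and brain either (difference -0.15, 95% interval -0.37 to 0.08). Nor did Apoa5, at 11.34, 11.46 and 11.17 in liver (kidney minus brain 0.18, 95% interval -0.0014 to 0.35), although it passed with pools A and B alone (0.27, adjusted p = 0.0347). Apoc3, the inhibitor, differed: its kidney arrays at 8.10, 8.07 and 7.85 were 1.43 (SE 0.08, adjusted p = 8.7e-19) above brain at 6.58, 6.44 and 6.71, while liver at 13.32, 13.34 and 13.41 stood 5.35 above kidney. Averaging each tissue over the 5 diets in place of Control alone, kidney and brain also passed for Apoa5 (0.12), Apoc1 (-0.16) and Apoc2 (-0.12), all with an adjusted p of at most 0.05.

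Apoe stood higher in brain than in kidney. Control arrays read 13.65, 13.66 and 13.75 in liver, 12.26, 12.18 and 12.19 in brain, and 10.28, 10.28 and 10.20 in kidney. Kidney minus brain was -1.96 (SE 0.06, adjusted p = 7.93e-29), so brain was 3.9-fold higher, and liver exceeded brain by 1.47 (SE 0.06). It was the only one of the 10 genes that passed with brain above kidney. Of the 23 further genes listed with the apolipoproteins, Apool (2.45), Apoh (1.57), Apoo (0.78), Saa4 (0.53) and Apol9a (0.42) passed with kidney above brain. Apod (kidney minus brain -4.09, adjusted p = 1.16e-26), Clu (-1.13, adjusted p = 1.07e-17), Apol8 (-0.44) and Apol10a (-0.30) passed with brain above kidney. In either direction 59.1% of all genes passed. The astrocyte markers were higher in brain as well, at 8.91 to 9.26 against 7.03 to 7.41 in the other tissues. Apoa4 read 11.78, 11.50 and 11.73 in Control liver, 8.01, 7.97 and 7.82 in kidney, and 6.79, 7.13 and 6.94 in brain, so that liver exceeded kidney by 3.73 (SE 0.09) and kidney exceeded brain by 0.98 (SE 0.09, adjusted p = 2.06e-12). In all, 6 of 10 genes passed between kidney and brain and 5 were DE, against 59.1% and 30% of all genes, and 4 of the 5 DE genes were higher in kidney. In bulk RNA, fewer cells of a type and less RNA per cell cannot be told apart.

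In both clusters the step between liver and kidney was larger than in the listed genes beside them. On chromosome 9, Apoa1, Apoc3, Apoa4 and Apoa5 stood 3.73 to 6.50 higher in liver than in kidney. Sik3 on one side differed by -0.32 and Zpr1 and Bud13 on the other by 0.46 and 0.09. Sik3 and Zpr1 passed as well (adjusted p = 0.000317 and 0.000778). On chromosome 7, Apoc2, Apoc4, Apoc1 and Apoe stood 3.44 to 6.65 higher in liver, while Clptm1 before them was 0.75 lower on the log2 scale (log2 difference -0.75) and Tomm40 after them differed by 0.05. Apoc4, a minor apolipoprotein of the same cluster that is not one of the 10 genes, was 3.95 higher in liver (SE 0.1).

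**Figure D2:**
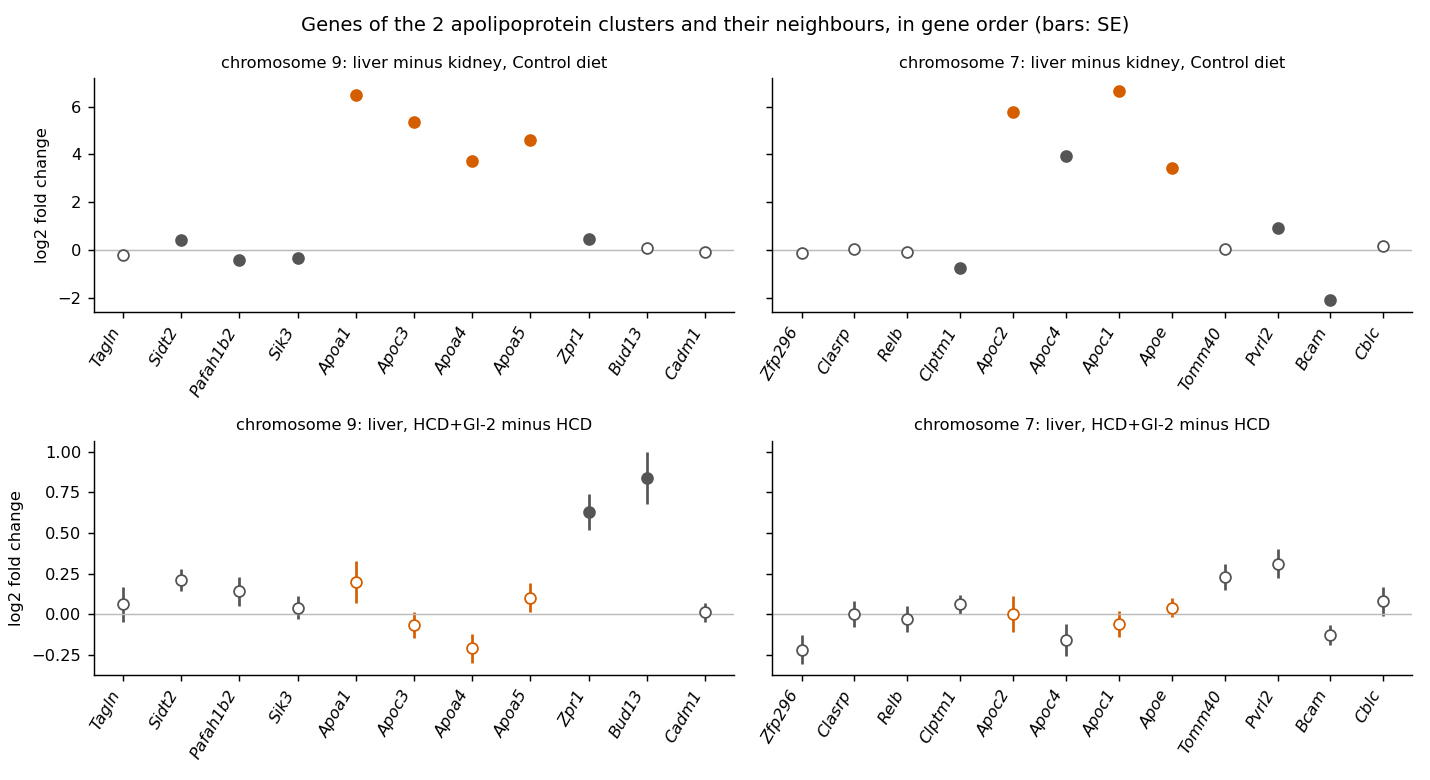
Log2 fold change with its SE (y axis) for the genes of both clusters and up to 4 measured listed neighbours on each side (x axis, in gene order, not to distance), for liver against kidney (top) and HCD+Gl-2 against HCD in liver (bottom). Orange points are among the 10 genes, and filled points passed the adjusted p. In the top row the cluster genes stand at 3.44 to 6.65 with neighbours between -2.10 and 0.92, and in the bottom row only Zpr1 (0.63) and Bud13 (0.84) are filled.

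Diet differences in these genes were small. In every tissue HCD was set against Control and the 3 treatments against HCD, so that all 4 comparisons share the HCD arrays. Over these 12 comparisons and 10 genes, 120 values, none exceeded 0.7 in size. The largest was 0.51, the median size was 0.07, and the outermost 95% bounds were -0.79 and 0.56. An adjusted p of at most 0.05 was reached by 2 of the 120, Apom in liver and Apob in brain, and an unadjusted p under 0.05 by 12. In 32 of the 120 the arrays of the compared groups did not overlap, so a lack of overlap was common at small differences. Its share over all genes was not counted for these comparisons.

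In liver, Apom fell on HCD. The Control arrays read 10.05, 9.78 and 10.05, and the HCD arrays 9.59, 9.31 and 9.45, with no overlap. The log2 difference was -0.51 (SE 0.14, 95% interval -0.79 to -0.23, adjusted p = 0.0484), which is 1.43-fold lower. Apom was 1 of 10 genes to pass, where 1.34% of all genes did. The call sits at the threshold: it was kept without Control pool B but was lost on leaving out each other array of the comparison in turn (-0.59 to -0.44, adjusted p 0.061 to 0.211), and with pools A and B alone it was -0.46 (adjusted p = 0.257). It was also lost in the fits on the liver arrays alone (adjusted p = 0.242) and on the compared groups alone (adjusted p = 0.133). Apoa4 read 11.78, 11.50 and 11.73 on Control and 11.39, 11.19 and 11.47 on HCD, again with no overlap. Its difference of -0.32 (SE 0.09, 95% interval -0.50 to -0.13) had an adjusted p of 0.0718.

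The other 8 genes did not pass in liver on HCD. Apoc1 was at 12.47, 12.51 and 12.49 on Control and at 12.64, 12.64 and 12.67 on HCD, a difference of 0.16 (95% interval 0 to 0.33, adjusted p = 0.485). Every HCD array of Apoc1 lay above every Control array, and every HCD array of Apob lay below every Control array. Apob, the structural protein, differed by -0.03 (95% interval -0.19 to 0.12), Apoe by 0.03 (-0.08 to 0.15), Apoa1 by -0.02 (-0.28 to 0.23) and Apoa2 by -0.01 (-0.17 to 0.16). Apoc3, Apoc2 and Apoa5 differed by 0.07, -0.04 and 0.02. The response to RNA amount at the top of the arrays' range, where Apoe, Apoa1, Apoa2 and Apoc3 lay, was not tested. Apoa4 and Apom were 2.08 to 2.99 and 3.81 to 4.83 below the highest value on the array. The median over the 10 genes was -0.015, beside -0.012 over all genes.

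**Figure D3:**
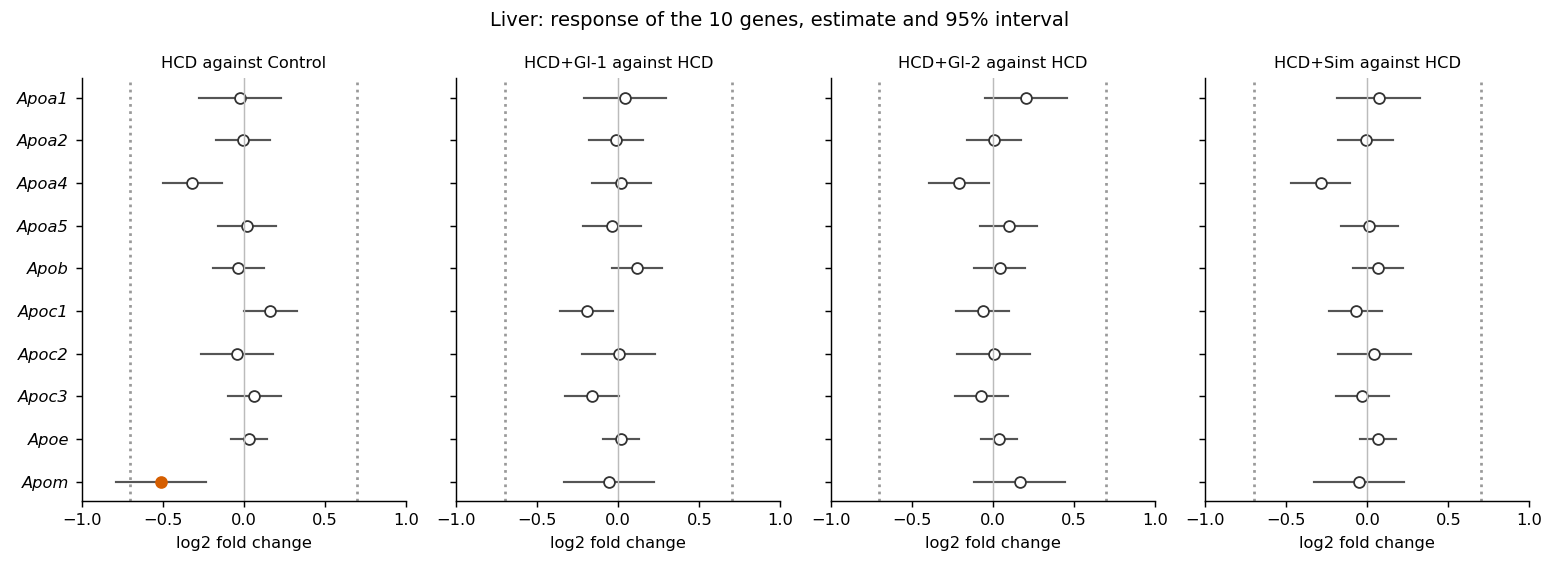
Log2 fold change in liver (x axis) with its 95% interval for the 10 genes (y axis) in 4 comparisons; dotted lines mark 0.7 in size and the filled point passed the adjusted p. Only Apom on HCD against Control is filled (-0.51), and Apoa4 lies left of 0 with its interval in 3 of the 4 panels.

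None of the 10 genes passed when a treatment was compared with HCD in liver. This held for Gl-1 (smallest adjusted p 0.193; 2.48% of all genes passed), for Gl-2 (0.303; 1.7%) and for simvastatin (0.121; 1.1%), and 1 gene in each had an unadjusted p under 0.05. That gene was Apoc1 on Gl-1, at 12.49, 12.52 and 12.36, all below the HCD arrays at 12.64, 12.64 and 12.67 (difference -0.20, 95% interval -0.36 to -0.03, adjusted p = 0.193). On Gl-2 it was Apoa4, at 11.28, 11.06 and 11.09 (difference -0.21, 95% interval -0.39 to -0.03, adjusted p = 0.303). On simvastatin it was Apoa4 again, at 11.13, 11.10 and 10.96, below all HCD arrays (difference -0.29, 95% interval -0.47 to -0.11, adjusted p = 0.121). Apom did not pass for any treatment, with differences of -0.06 on Gl-1, 0.17 on Gl-2 and -0.05 on simvastatin and 95% intervals within -0.33 to 0.44. On Gl-1 the differences of the others were 0.12 for Apob, 0.04 for Apoa1, -0.02 for Apoa2, 0.0019 for Apoc2, -0.16 for Apoc3, -0.04 for Apoa5, 0.02 for Apoe and 0.02 for Apoa4. On Gl-2 the differences of the others were 0.04 for Apob, 0.20 for Apoa1, 0.01 for Apoa2, -0.06 for Apoc1, 0.0048 for Apoc2, -0.07 for Apoc3, 0.10 for Apoa5 and 0.04 for Apoe. On simvastatin their differences were 0.07 for Apob, 0.07 for Apoa1, -0.01 for Apoa2, -0.07 for Apoc1, 0.04 for Apoc2, -0.03 for Apoc3, 0.01 for Apoa5 and 0.07 for Apoe. The median difference of the 10 genes was -0.007 on Gl-1, 0.022 on Gl-2 and 0.000 on simvastatin, beside -0.013, 0.006 and 0.035 over all genes.

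All 4 diets with cholesterol were then set against Control, a comparison added after the values of Apoa4 and Apom had been seen, so it is no independent evidence for them. In liver 2 of the 10 genes passed, where 2.06% of all genes did. Apoa4 was at 11.50 to 11.78 on the 3 Control arrays and at 10.96 to 11.47 (median 11.23) on the 12 cholesterol arrays, a difference of -0.44 (SE 0.07, adjusted p = 0.000109), or 1.35-fold lower. Apom was at 9.78 to 10.05 on Control and at 9.08 to 9.73 (median 9.47) on cholesterol, a difference of -0.50 (SE 0.11, adjusted p = 0.00542), or 1.41-fold lower. For both genes all 12 cholesterol arrays lay below all 3 Control arrays, as they did for 0.661% of all genes. The exact two-sided permutation p was 0.0022 for each, the smallest that the 455 permutations allow, among 30 such values computed over the 10 genes and 3 tissues. With pools A and B alone the exact permutation p was 0.0222 for Apoa4, the smallest of 45 permutations, and 0.0444 for Apom. These values were not particular to the 2 genes. Liver Apoe (difference 0.06) and kidney Apoc3 (-0.14) also had 0.0222 with those pools, and liver Apoc1 (0.08) had 0.0444. With all arrays the exact permutation p was 0.00879 for brain Apoa4, in the other direction (0.24), 0.0132 for liver Apoe and 0.0462 for kidney Apoc3. In the limma fit on pools A and B, liver Apoa4 passed (-0.41, adjusted p = 0.0199) and liver Apom did not (-0.41, adjusted p = 0.139). Apom also lost the call without Control pool A (adjusted p = 0.0763) or C (0.0638).

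The treated groups were set against Control one by one as well. They share the Control arrays. Apoa4 differed by -0.30 on Gl-1 (adjusted p = 0.0571), by -0.53 on Gl-2 (adjusted p = 0.000227) and by -0.61 on simvastatin (adjusted p = 3.84e-05), the lowest Apoa4 group mean in liver, at 11.06 against 11.67 on Control. Apom differed by -0.57 on Gl-1 (adjusted p = 0.0131), by -0.35 on Gl-2 (adjusted p = 0.209) and by -0.57 on simvastatin (adjusted p = 0.021). The Apom calls were lost with the liver arrays alone (adjusted p 0.109 and 0.138) and with pools A and B alone (0.341 and 0.109), and those of Apoa4 on Gl-2 and simvastatin with the compared groups alone (0.0832 and 0.0962). Leaving out pool A or C of Control or of Gl-1 also ended the Gl-1 call of Apom (adjusted p 0.0535 to 0.175), and leaving out Control pool A or C or simvastatin pool B ended the simvastatin call (0.0814 to 0.143). So 1 of the 10 genes passed on Gl-1 (3.58% of all genes), 1 on Gl-2 (2.86%) and 2 on simvastatin (1.54%). The other 8 genes kept within 0.18 of Control in all 3 comparisons. Across the 5 diets the means of Apoa4 and Apom had SDs of 0.236 and 0.241, beside 0.01 to 0.08 for the other 8 genes in liver. Their arrays also varied most within a diet, with pooled SDs of 0.12 and 0.2, beside 0.029 to 0.093 for the other 8. The 2 genes were singled out after these values were seen, so the contrast is no separate evidence.

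**Figure D4:**
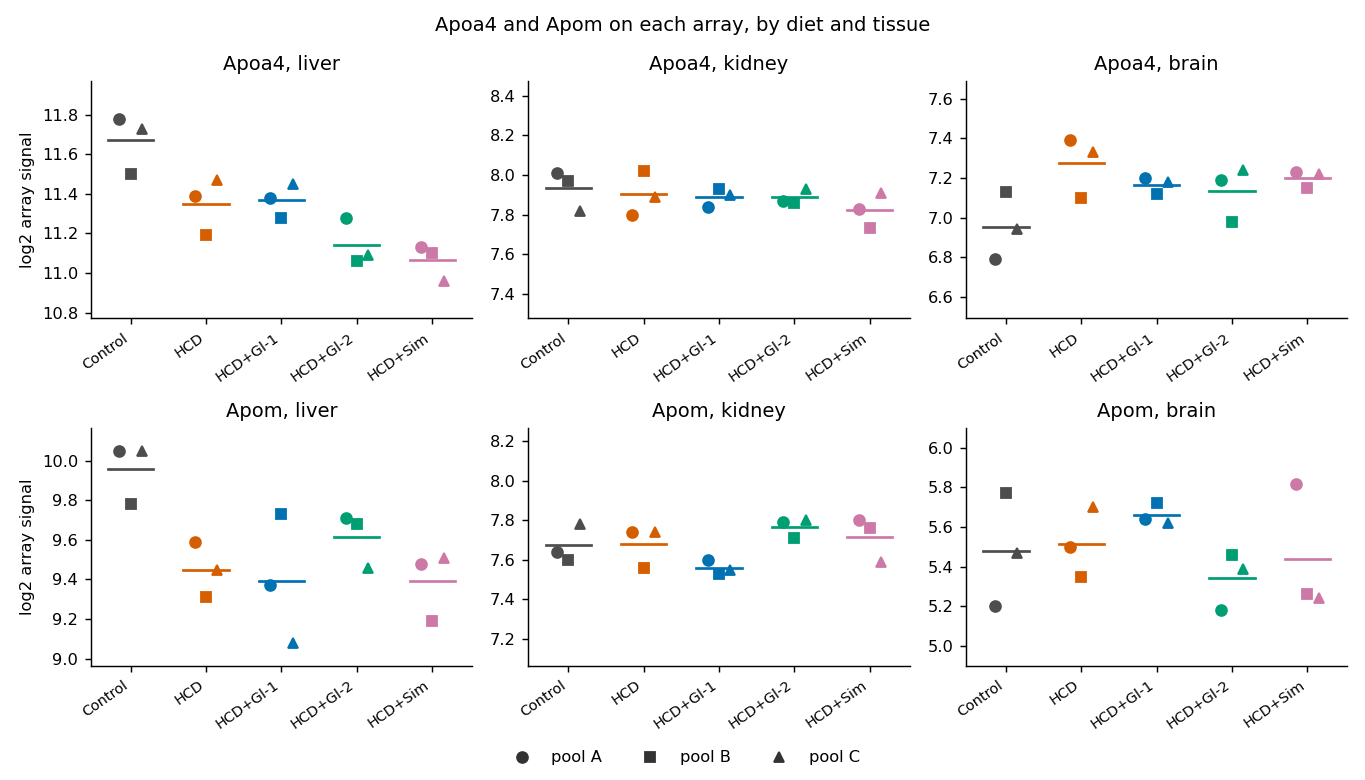
Log2 array signal (y axis, a span of 1.2 in every panel) of Apoa4 and Apom by diet (x axis) in liver, kidney and brain; marker shapes are the pools and lines the group means. In liver the 12 cholesterol arrays lie below the 3 Control arrays for both genes, and in kidney the diets overlap.

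Markers of other cells differed between some of these liver groups. The mean of 12 skeletal muscle genes was 6.8 to 6.97 on the Control arrays and 6.20 to 6.55 on HCD, HCD+Gl-1 and HCD+Gl-2, but 6.47 to 7.77 on HCD+Sim, where Apoa4 was lowest. The mean of 13 pancreas acinar genes was 5.80 to 6.04 in all groups but HCD+Sim, where it was 6.06 to 7.53. Against HCD, 8 of the 12 muscle and 11 of the 13 pancreas genes rose on simvastatin. Macrophage and Kupffer cell genes averaged 8.33 to 8.54 on Control and 8.12 to 8.19 on HCD. They overlapped Control on HCD+Gl-1 (8.10 to 8.37), HCD+Gl-2 (8.14 to 8.35) and HCD+Sim (8.25 to 8.53). Hepatic stellate cell and endothelium genes averaged 8.73 to 8.87 on Control and 8.66 to 8.75 on HCD. On HCD+Gl-1 they were at 8.51 to 8.55, on HCD+Gl-2 at 8.57 to 8.66 and on HCD+Sim at 8.76 to 8.81. Their part in the Apoa4 and Apom results was not tested. The intestinal epithelium markers, the other known source of Apoa4, averaged 6.29 to 6.39 on Control and 6.28 to 6.43 on the cholesterol diets, and the hepatocyte markers 12.88 to 12.89 and 12.83 to 12.92. Of the intestinal markers Fabp2 passed as higher on the 4 cholesterol diets against Control (0.45, adjusted p = 0.0218) and on Gl-1 against Control (0.50, adjusted p = 0.0388).

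Kidney showed no passing apolipoprotein in its 4 comparisons. The share of all genes that passed was 0.131% for HCD against Control, 0.267% for Gl-1, 0.996% for Gl-2 and 0.222% for simvastatin. On HCD, Apoa2 was at 7.22, 7.37 and 7.29 against 7.48, 7.55 and 7.38 on Control (difference -0.18, 95% interval -0.34 to -0.01) and Apoc3 at 7.79, 7.89 and 7.83 against 8.10, 8.07 and 7.85 (difference -0.17, 95% interval -0.34 to -0.01), each with an adjusted p of 1. The 2 genes had an unadjusted p under 0.05. Of the 10 genes, 8 were lower on HCD (median -0.084), where 46.7% of all genes were higher (median -0.007). On Gl-2 7 of 10 were higher than on HCD (median 0.099), as were 54.2% of all genes (median 0.011). The largest difference was that of Apoc1, at 5.81, 6.01 and 5.94 against 5.72, 5.71 and 5.62 (difference 0.24, 95% interval 0.08 to 0.40, adjusted p = 0.205). The HCD arrays enter both comparisons. Of the others on HCD against Control, the differences of the HDL and VLDL proteins were 0.11 for Apoa1, 0.01 for Apom and -0.11 for Apob, and those of the remaining genes -0.16 for Apoc1, -0.02 for Apoc2, -0.07 for Apoa5, -0.09 for Apoe and -0.03 for Apoa4. On Gl-2 the differences of the others were 0.13 for Apob, -0.14 for Apoa1, 0.13 for Apoa2, 0.08 for Apom, -0.03 for Apoc2, 0.13 for Apoc3, 0.11 for Apoa5, 0.09 for Apoe and -0.01 for Apoa4. On Gl-1 the differences were 0.01 for Apob, -0.05 for Apoa1, 0.12 for Apoa2, -0.12 for Apom, 0.03 for Apoc1, 0.02 for Apoc2, -0.02 for Apoc3, 0.19 for Apoa5, -0.07 for Apoe and -0.01 for Apoa4, where Apoa5 alone had an unadjusted p under 0.05. On simvastatin none had one, and the differences were 0.15 for Apob, -0.19 for Apoa1, 0.03 for Apoa2, 0.04 for Apom, 0.14 for Apoc1, -0.01 for Apoc2, -0.0044 for Apoc3, -0.10 for Apoa5, 0.08 for Apoe and -0.08 for Apoa4. With all 4 cholesterol diets against Control none of the 10 passed, where 0.0679% of all genes did, with Apoa4 at -0.06 (95% interval -0.20 to 0.09) and Apom at 0.01 (-0.21 to 0.23).

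In brain 1 of the 10 genes passed, Apob on HCD+Gl-2. Its arrays read 5.55, 5.58 and 5.67 against 5.25, 5.21 and 5.13 on HCD, a difference of 0.41 (SE 0.08, 95% interval 0.25 to 0.56, adjusted p = 0.0273), where 0.0362% of all genes passed. The groups did not overlap, but Control read 5.43, 5.33 and 5.26 and HCD+Gl-1 pool A read 5.56. These signals lie below 6.76, the lowest median of any array, and the call was lost on leaving out any of the 6 arrays (adjusted p 0.0545 to 0.207), and with pools A and B alone (0.34, adjusted p = 0.59). No gene passed on HCD against Control (0.0543% of all genes), Gl-1 (0.0181%) or simvastatin (0.0181%). Apoe, the main brain apolipoprotein, differed by 0.02, -0.02, 0.04 and -0.06 in the 4 brain comparisons, with 95% intervals within -0.17 to 0.15. The differences of the others on HCD+Gl-2 were 0.14 for Apoa1, 0.23 for Apoa2, -0.17 for Apom, 0.05 for Apoc1, 0.11 for Apoc2, 0.07 for Apoc3, -0.04 for Apoa5 and -0.14 for Apoa4. On HCD+Gl-1 their differences were 0.09 for Apob, -0.17 for Apoa1, -0.08 for Apoa2, 0.14 for Apom, -0.04 for Apoc1, 0.07 for Apoc2, -0.01 for Apoc3, -0.02 for Apoa5 and -0.11 for Apoa4. On simvastatin, 9 of the 10 genes were lower than on HCD (median -0.082), where 50.5% of all genes were higher (median 0.001). None of the 10 had an unadjusted p under 0.05, and all were read from the same arrays. The differences of the genes other than Apoe were -0.15 for Apob, -0.11 for Apoa1, -0.09 for Apoa2, -0.08 for Apom, -0.16 for Apoc1, -0.03 for Apoc2, -0.09 for Apoc3, 0.07 for Apoa5 and -0.08 for Apoa4. Apoa4 in brain was at 6.79, 7.13 and 6.94 on Control and at 7.39, 7.10 and 7.33 on HCD, a difference of 0.32 (95% interval 0.14 to 0.50, adjusted p = 0.248), with overlap. The differences of the others on HCD were -0.15 for Apob, 0.03 for Apoa1, 0.12 for Apoa2, 0.04 for Apom, 0.06 for Apoc1, -0.11 for Apoc2, 0.07 for Apoc3 and 0.04 for Apoa5. With all 4 cholesterol diets against Control none passed in brain (0.625% of all genes), and Apoa4 differed by 0.24 (95% interval 0.09 to 0.38, adjusted p = 0.101).

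Whether a response differed between tissues was tested directly, in 80 values, of which 9 had an unadjusted p under 0.05. HCD against Control differed between liver and brain for 1 gene, Apoa4 (liver minus brain -0.64, SE 0.13, adjusted p = 0.00978), where 0.326% of all genes passed. The call was lost on leaving out Control pool A or HCD pool A of brain or HCD pool B of liver (adjusted p 0.0517 to 0.0679), and in fits on fewer arrays (0.0672 for the compared tissues, 0.241 for the compared groups). The brain Apoa4 arrays of these 2 diets lay at 6.79 to 7.39, near the array medians of 6.76 to 6.92. No gene passed for Gl-1 (0.362% of all genes), Gl-2 (0.598%) or simvastatin (0.0996%) between liver and brain. None passed between liver and kidney either, on HCD (0.263%), Gl-1 (0.389%), Gl-2 (0.625%) or simvastatin (0.299%). For all 4 cholesterol diets against Control, Apoa4 again differed between liver and brain (-0.68, SE 0.10, adjusted p = 9.64e-05; 1 of 10 genes, 1.06% of all genes), and no gene differed between liver and kidney (0.539% of all genes; Apoa4 -0.38, adjusted p = 0.0868, and Apom -0.51, adjusted p = 0.186).

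The enzymes, receptors and regulators around the apolipoproteins were read from lists of 102 measured genes, of which 14 passed in at least 1 of the 4 liver comparisons, as 5.3% of all genes did (1.34% on HCD against Control). Of the 20 genes of lipoprotein assembly and Apob mRNA editing, 1 rose and 1 fell on HCD. Fitm1, a lipid droplet protein, rose by 0.74 (SE 0.09, adjusted p = 1.78e-06), and Apobec1, the enzyme that edits Apob mRNA to its short form, fell by 0.40 (SE 0.1, adjusted p = 0.0361). Apobec1 read 8.91, 8.86 and 9.21 on Control, 8.72, 8.46 and 8.60 on HCD and 9.15, 9.06 and 9.06 on HCD+Gl-1, where it was 0.49 above HCD (adjusted p = 0.0051). Apob itself did not pass in either comparison, at -0.03 and 0.12.

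Of the 20 lipoprotein receptor genes, 2 rose on HCD in liver, the fatty acid transporter Cd36 by 0.64 (adjusted p = 0.000232) and the VLDL receptor Vldlr by 0.43 (adjusted p = 0.0112). Of 7 plasma lipolysis genes Lpl, the lipase that Apoc2 activates, rose by 0.59 (adjusted p = 0.00112). None of the 10 genes of HDL biogenesis and remodelling passed in any of the 4 liver comparisons. Against Control, Pltp, which transfers phospholipid between particles, fell on the 4 cholesterol diets (-0.34, adjusted p = 0.0283), on Gl-1 (-0.57, adjusted p = 0.00159) and on Gl-2 (-0.40, adjusted p = 0.0373), and Abca1 rose on the 4 diets (0.20, adjusted p = 0.0488). Of 22 transcription factors known to act on apolipoprotein genes, 1 rose on HCD, Srebf1, at 10.65, 10.67 and 10.61 against 9.40, 9.32 and 9.78 (difference 1.14, SE 0.14, adjusted p = 1.78e-06). No HCD array of Srebf1 came near a Control array. Of 23 further genes listed with the apolipoproteins, 1 fell on HCD, Apol9a (-0.43, adjusted p = 0.0161), and the lists' medians lay between -0.049 and 0.103, beside -0.012 over all genes.

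On Gl-1, where 2.48% of all genes passed, the same lists held 6 genes that rose and 6 that fell against HCD. Srebf1 fell by 0.80 (adjusted p = 0.000891), Tm6sf2, which helps to load lipid onto Apob particles, by 0.57 (adjusted p = 0.00573), Fitm1 by 0.55 (adjusted p = 0.000479), and Apoc4, Vldlr and Gpihbp1 by 0.31 to 0.39. Those that rose were Saa2, an acute phase protein carried on HDL (3.15, SE 0.86, adjusted p = 0.0407), Cebpb (0.58), Apobec1 (0.49), Apol9a (0.43), Apon (0.35) and Pdia4 (0.33). The Saa2 value rests on pools A and B at 11.28 and 11.96, since pool C was at 7.89 against HCD at 7.29, 6.91 and 7.48. On Gl-2, Fitm1 fell by 0.56 and Cd36 by 0.53, and Cebpb rose by 0.56 and Apol9a by 0.58. On simvastatin 1 listed gene passed, Apol9a, which rose by 0.60 (adjusted p = 0.000578).

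**Figure D5:**
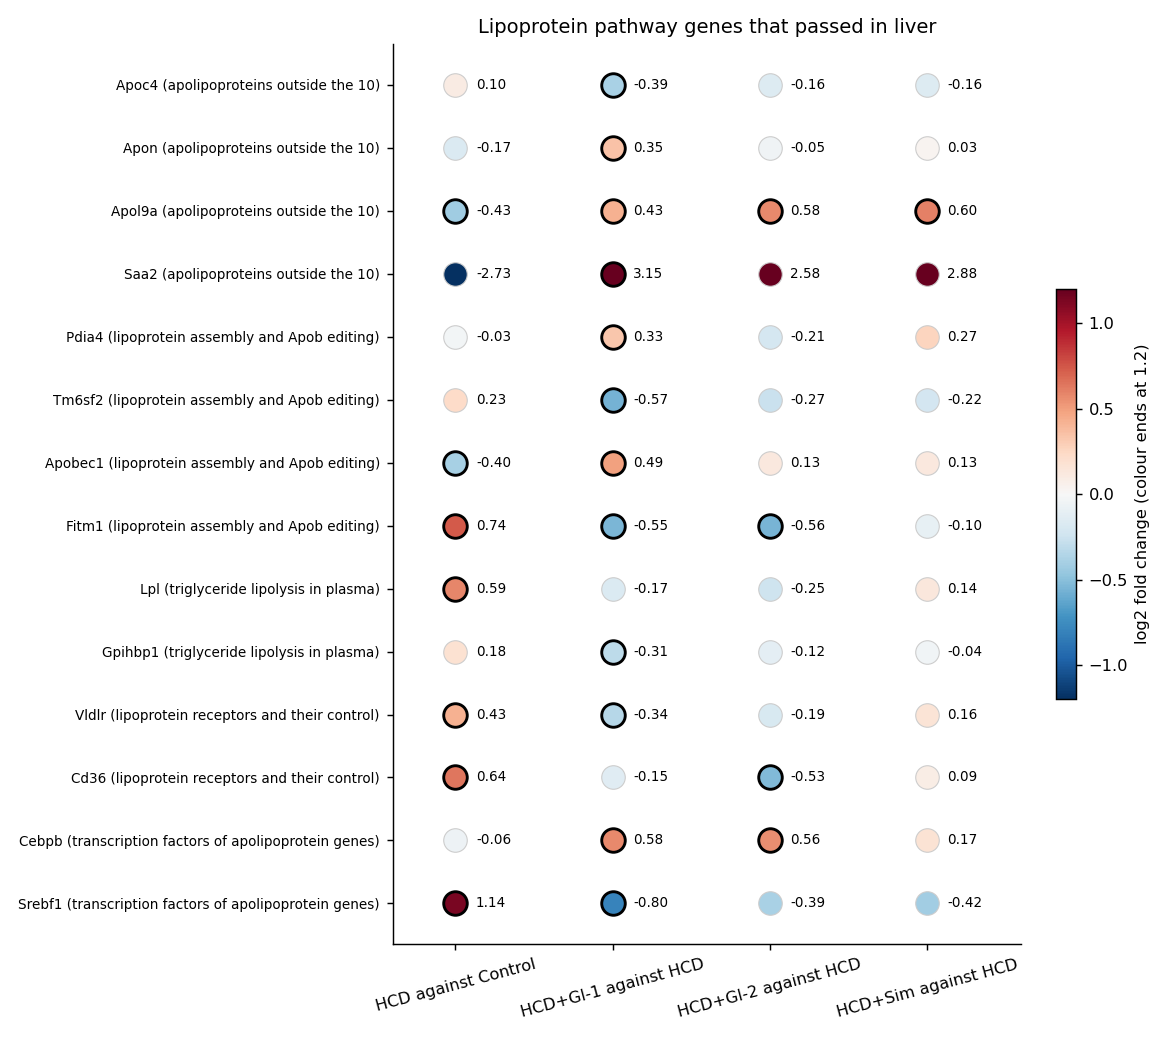
Log2 fold change (colour and printed value) of the 14 listed lipoprotein genes that passed in at least 1 liver comparison, rows grouped by list and columns by comparison; black rings passed the adjusted p, and colours end at 1.2 in size. Srebf1, Fitm1, Cd36, Lpl and Vldlr are ringed as higher on HCD, and simvastatin has 1 ring, Apol9a.

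On Gl-2 the liver genes that passed near the chromosome 9 cluster lay beside it and not in it. Zpr1, the gene next to Apoa5, read 9.49, 8.84 and 9.61 on HCD+Gl-2 against 8.76, 8.70 and 8.59 on HCD (difference 0.63, SE 0.11, adjusted p = 0.000771). Bud13, the gene after it, read 8.46, 7.45 and 8.86 against 7.47, 7.26 and 7.52 (difference 0.84, SE 0.16, adjusted p = 0.00211). Pool B was the lowest of the HCD+Gl-2 arrays for both and overlapped HCD for Bud13. In the same arrays Apoa5 differed by 0.10 (95% interval -0.08 to 0.27), Apoa4 by -0.21, Apoc3 by -0.07 and Apoa1 by 0.20, none of which passed.

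Outside the liver few listed genes passed. In kidney Angptl4, a lipase inhibitor, fell on HCD by 0.76 (adjusted p = 0.00341) and rose by 0.61 on Gl-1 against HCD (adjusted p = 0.0228). Also in kidney, Mylip, which directs the LDL receptor to breakdown, rose by 0.52 on Gl-2, Cebpb by 0.46 and the cholesterol exporter Abca1 by 0.30. In brain Fitm1 rose by 0.55 on HCD (adjusted p = 0.00196), the only listed gene to pass in the 4 brain comparisons.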

How the data were processed

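Pooled RNA was hybridised to Affymetrix mouse gene ST arrays. The deposited values are log2 signals that the authors, by their methods, made with RMA and quantile normalization in oligo and then adjusted for batch with ComBat. Where several probe sets hit a gene, the most variable by interquartile range was used. The batches are not given in the sources used here, and arrays carry no read depth. Tissue, diet and pool come from the labels. Of 22080 gene rows, 13 bear a date for a name, and 0 columns were unused.

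All 45 arrays entered a single limma 3.58.1 model (R 4.3.3) with a mean for each of 15 groups (residual degrees of freedom 30, prior 7.34). P-values were adjusted by Benjamini-Hochberg over all genes per comparison, and the scripts were tested on simulated data. DE used the study's thresholds, 0.7 and 0.05. With 3 arrays a group, an exact two-sided permutation test cannot give a p under 0.1. By rule all 10 genes are named, those that did not pass in differences between tissues and in added comparisons only by counts or ranges, and up to 3 DE genes of each list. The listed and neighbouring genes that passed without being DE were named after their values were seen. The members and lists were chosen with earlier results of these data known. Alternatives were fits on fewer arrays, no pool C, pool letters as a block, no dim genes (14046 kept), renewed quantile normalization within each tissue, trend and robust moderation, the adjusted p alone, means over diets, and each array left out. Within a tissue, pools of the same letter did not deviate together: in none of the 12 diet comparisons were the correlations of all 3 letters over 0.1. Between tissues, pools of 1 diet and letter may hold the same mice, and their deviations correlated over 0.1 in 2 of 15 pairs for liver and kidney, 0 for liver and brain and 1 for kidney and brain. Diet and pool as a block across tissues was added after the data were seen. Promoter windows and gene order are RefSeq's (GRCm38.p6). Figures were drawn with matplotlib.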

Additional observations from a re-analysis of the deposited data

Results flagged for a closer look

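For Apoa4 the test of a difference in diet response between liver and brain passed in the fit across all arrays. The test of the difference for HCD against Control, liver minus brain, gave -0.64 (SE 0.13, adjusted p = 0.00978), from -0.32 in liver and 0.32 in brain, neither of which passed on its own. It was lost in the fits on fewer arrays (adjusted p 0.0672 and 0.241) and on leaving out brain Control pool A, brain HCD pool A or liver HCD pool B (0.0517 to 0.0679), and the brain Apoa4 arrays of both diets lay at 6.79 to 7.39, near the array medians of 6.76 to 6.92. With diet and pool as a block it passed (adjusted p = 0.0294). The same test for the 4 cholesterol diets against Control, chosen after the values had been seen and with the same Control arrays, gave -0.68 (SE 0.10, adjusted p = 9.64e-05), from -0.44 in liver, which passed, and 0.24 in brain, which did not.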

How the results depend on the processing

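The counts of DE apolipoproteins (0 in every diet comparison; 10, 10 and 5 between tissues) were the same under every alternative fit, with these exceptions. With the adjusted p alone, 1 gene counted in liver HCD against Control, 1 in the brain comparisons, 1 among the differences between tissues and 6 in kidney against brain. Leaving out 1 array gave 0 to 1 in those differences, 1 without brain HCD, brain Control or liver Control pool B. Of the 4 cholesterol diets against Control in liver, 2 genes passed, but 1 in the fit on the liver arrays only, in the fit on the compared groups only and with pools A and B only, and 1 to 2 with an array left out. Apoa4 passed in all of these (adjusted p at most 0.0199 over the 7 other settings), and the gene lost was Apom. With the pool letter as a replicate block the counts stayed at 0 and 10, while Apom on HCD in liver (-0.51) lost its call (adjusted p = 0.0571) and Apoa4 on Gl-1 against Control gained one (-0.30, adjusted p = 0.0492). Apoa4 on HCD in liver passed with renewed quantile normalization (-0.35, adjusted p = 0.0286), without dim genes, with trend and robust moderation (adjusted p = 0.0481 each) and without liver Control pool B (0.0356). In the fits on the arrays of the compared tissues and on the compared groups, Apom on HCD in liver failed (adjusted p 0.242 and 0.133), as did Apob in brain (0.597 and 0.308). With diet and pool as a replicate block across tissues, added after the data were seen, no call among the 10 genes changed, and Apoa4, HCD against Control, liver minus brain, was -0.64 (adjusted p = 0.0294). No value that was called or had an unadjusted p under 0.05 changed sign. The number of arrays limits the precision.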
